A study of Mus musculus with 14 samples.

Results

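AT3 is a mouse mammary carcinoma cell line that forms tumors when injected under the skin of C57Bl/6 mice. Of the 14 tumors of the series, 6 were AT3 tumors, which the sample labels place together in experiment 3, and all 6 were taken here. They formed 2 groups of 3. Untreated mice drank plain water, and NAM-treated mice drank water with 0.5% nicotinamide (NAM) for 10 days, starting once a tumor had reached 0.25 cm2. Both groups shared the cell line, the host strain and the subcutaneous site, and the host was immunocompetent in both. The other 8 tumors were primary mammary tumors driven by medroxyprogesterone acetate and DMBA (M/D-driven tumors, 4 untreated and 4 NAM-treated). The age and the sex of the hosts of AT3 tumors are not given in the labels, and a single cell line stands for the tumor cells. RNA was taken from whole tumors, 1 library per tumor, so that more cells of a type and more RNA per cell cannot be told apart in any result below. Values are given in the order of replicate numbers 1, 2 and 3, and they are normalized counts, which are reads per gene divided by a size factor of the tumor.

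Nicotinamide, a form of vitamin B3, is taken up by cells and turned into NAD by the salvage enzyme NAMPT, and it is also the product, and at high levels an inhibitor, of enzymes that consume NAD such as sirtuins and poly(ADP-ribose) polymerases. A transplanted tumor is a mixture of injected carcinoma cells and of host cells that grow into it, namely fibroblasts that lay down collagen, endothelial cells and pericytes of vessels, and leukocytes. Within the carcinoma, single cells can take on specialized epithelial programs. One of these is the program of proton-secreting cells (ionocytes of the airway, intercalated cells of the kidney), which is set up by the transcription factor FOXI1 and includes a plasma membrane proton pump, carbonic anhydrases and an anion exchanger.

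The reads recovered from the deposited values amounted to 40936868 to 75527467 per AT3 tumor. Of 19281 genes whose mean reached 10 in a group, 2358 were higher (12.2%) and 2100 were lower (10.9%) with NAM, at an unadjusted p of at most 0.05 by limma and a fold change of at least 1.5. These are the thresholds meant below by higher, lower, rose and fell, and these percentages are the background against which the counts of gene groups are read. The adjusted p of the genes past these thresholds was between 0.166 and 0.206 (limma, Benjamini-Hochberg), with 1 exception, GSMG0043594 (0.00519% of the genes tested), which is described last. On the recovered reads, DESeq2 placed 2047 genes at an adjusted p of at most 0.05 and edgeR 0, and without adjustment these numbers were 5487 and 4914. The groups did not overlap for 4367 genes (22.6%). Untreated tumor 2 and NAM-treated tumor 1 stood apart from the other tumors of their groups. Along the first principal component, which took 46.8% of the variance of all genes tested, untreated tumors 1 and 3 lay at −0.49 and −0.49, NAM-treated tumors 2 and 3 at 0.47 and 0.54, and the remaining pair near 0, at 0.05 and −0.08. Without untreated tumor 2, 3455 genes were higher and 3310 were lower, and without NAM-treated tumor 1 these numbers were 3459 and 2955. Without untreated tumors 1 and 3 and NAM-treated tumors 2 and 3 in turn, 6.47, 7.34, 5.06 and 4.68% of all genes tested were higher and 5.08, 6.07, 4.56 and 3.69% lower. The counts of many gene groups below moved as well, and a range called left-out gives the lowest and the highest count of a group over the 6 fits that each leave out 1 tumor, to be read against 4.68% to 18.2% higher and 3.69% to 17.5% lower among all genes. At an adjusted p of 0.05 (limma), 2520 genes passed without untreated tumor 2 (13.3% of those tested) and 2498 without NAM-treated tumor 1 (12.9%), against 1 gene with all tumors.

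The change with NAM followed the length of the transcript. Genes were assigned the length of their longest GENCODE transcript, which could be done for 16186 of the genes tested. The median length of a tested gene was 3124 bases, that of higher genes 5256.5 and that of lower genes 1507. In the class of 500 to 1000 bases, 8 of 890 genes were higher and 394 were lower, with a median log2 fold change of −0.81. Among genes of 5000 to 8000 bases, 935 of 2437 were higher and 50 were lower, with a median of 0.63. The share of a tumor's reads on genes of 500 to 1000 bases was 13.5, 9.20 and 13.3% in untreated tumors and 9.75, 7.28 and 6.44% in NAM-treated tumors, whereas the share on genes of 5000 to 8000 bases was 4.90, 7.90 and 5.21% and 6.88, 10.2 and 11.5%. Both shares of untreated tumor 2 and NAM-treated tumor 1 lay between those of the other untreated and the other NAM-treated tumors, so that for these shares the groups overlapped. A regression of each tumor's deviations from the gene means on log2 length gave slopes of −0.294, −0.0253 and −0.301 per doubling of length in untreated and of −0.0577, 0.304 and 0.374 in NAM-treated tumors. The means were −0.207 ± 0.157 and 0.207 ± 0.232 (SD, n = 3), and their difference was 0.414 (p = 0.2, exact permutation test, two-sided), the smallest p of 3 tumors against 3 being 0.1. The rank correlation of the log2 fold change with length was 0.593 in AT3 tumors and −0.0589 in M/D-driven tumors (over 15728 genes), a description over genes that share their libraries. The source of the trend was not tested, as the files hold no measure of RNA integrity.

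**Figure D1:**
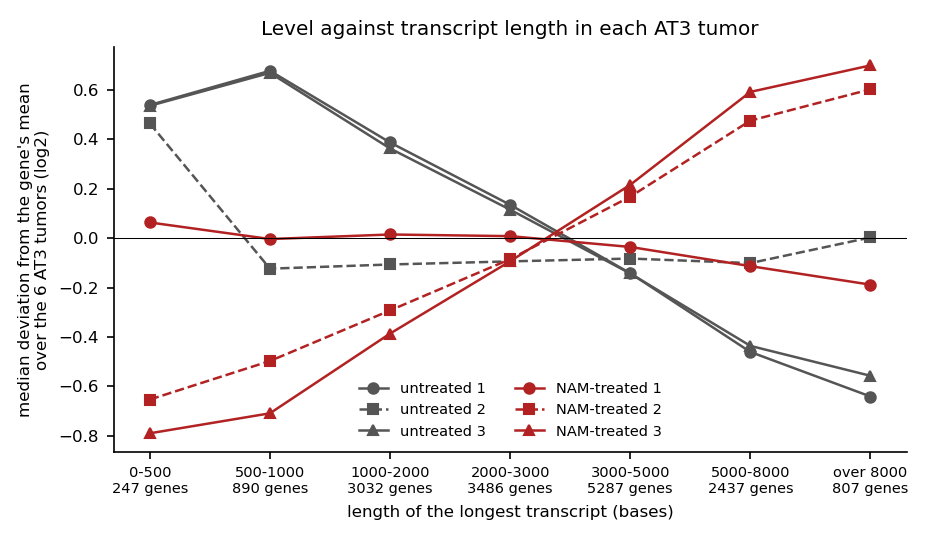
Median deviation from the gene's mean over the 6 AT3 tumors (log2, vertical axis) in 7 classes of transcript length (bases, horizontal axis, with the number of genes), 1 line per tumor, grey for untreated and red for NAM-treated tumors. Untreated tumors 1 and 3 fall from left to right, NAM-treated tumors 2 and 3 rise, and untreated tumor 2 (dashed grey) and NAM-treated tumor 1 (solid red circles) stay near 0 above 1000 bases.

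Every gene group below is therefore given a second time, with the trend of every tumor over transcript length and GC content subtracted (a spline fit), a value called length-adjusted. After this step, 1278 of 16186 genes were higher (7.9%) and 1276 were lower (7.88%). Of the 2288 higher genes with a length, 1023 stayed higher, and of the 1698 lower genes, 645 stayed lower. Another 255 genes were higher and 631 lower only after the step, and 0 turned from one direction to the other. The median log2 fold change was −0.05 before, over all 19281 genes tested, and 0.01 after, over the 16186 with a length. Where 2 log2 values stand for a gene below, the first is the fold change as measured, with its standard error from limma after ± where given, and the second is the length-adjusted one. The median of collagens moved close to 0 with the adjustment, whereas those of proton-secreting cell genes, pan-leukocyte genes, respiratory chain genes and ribosomal protein genes kept their sign and a part of their size.

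**Figure D2:**
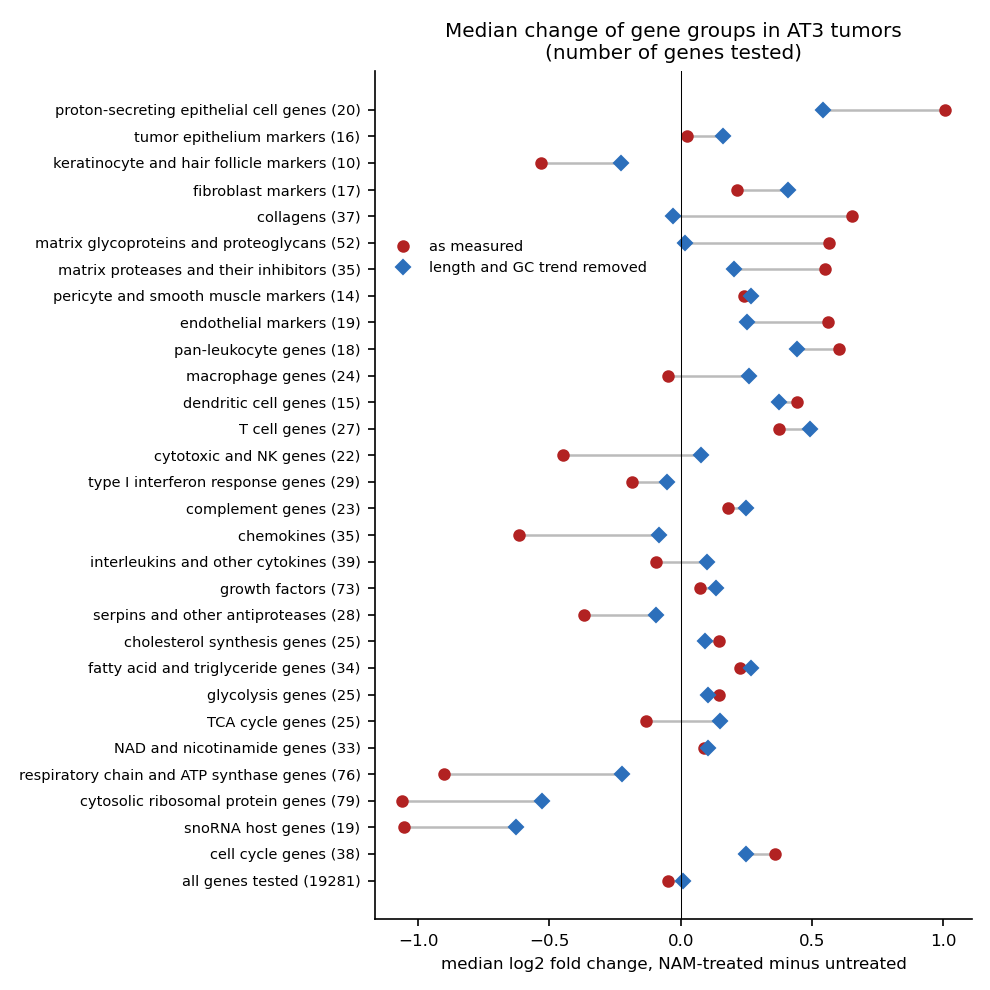
Median log2 fold change (NAM-treated minus untreated AT3 tumors, horizontal axis) of 29 gene groups and of all genes tested, with the number of genes tested in parentheses; red circles are values as measured, blue diamonds are values with the trend with length and GC content removed. Circles and diamonds lie far apart for collagens (0.65 and −0.03) and close together for growth factors (0.07 and 0.13).

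The AT3 tumors held an epithelial transcriptome in both groups. *Epcam*, an adhesion protein of epithelial cells, was at 25955, 18832 and 23485 in untreated and at 27578, 23020.4 and 21086 in NAM-treated tumors, and *Krt8*, a keratin of luminal cells, was at 39283, 19807 and 23678 and at 21218, 17599.7 and 16498. For these 2 genes the groups overlapped and the thresholds were not passed. Of 16 markers of tumor epithelium, all tested, 4 were higher and 2 lower, with a median log2 fold change of 0.02 (left-out 0 to 5 higher and 0 to 3 lower; length-adjusted 1 and 1, median 0.16). *Cdh1*, which encodes E-cadherin, rose from 7687, 9957 and 6626 to 10460.0, 19039 and 16535 (log2 fold change 0.90 ± 0.28), but its length-adjusted value of 0.46 did not pass. *Krt7*, a keratin of simple epithelia, fell from 9555, 6835 and 4865 to 2779.9, 4902 and 3422, with a log2 fold change of −0.92 and a length-adjusted value of −1.31, both past the thresholds, although NAM-treated tumor 2 was above untreated tumor 3. The estrogen receptor *Esr1* rose at few reads from 0, 6.09 and 9.77 to 9.72, 33.9 and 54.5, with a length-adjusted value of 2.12 that did not pass, and the progesterone receptor *Pgr* was at 8.70, 18.3 and 19.5 and at 29.2, 31.0 and 16.5. Both hormone receptors were thus at few reads in all tumors, and their groups overlapped. *Erbb2*, which encodes the receptor HER2, was at 1156, 1957 and 760.2 and at 1374, 1846 and 1719, with overlap and not past the thresholds.

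Genes of proton-secreting epithelial cells had the highest median of the 46 groups as measured. This group was put together after *Foxi1* had been seen among the leading genes, so that its count is a description. Of 31 genes, 20 passed the minimum and 8 of these were higher and 0 lower, with a median log2 fold change of 1.01 as measured and of 0.54 length-adjusted, and 7 of the 8 stayed higher after the adjustment. With a single tumor left out, 7 to 9 were higher, and 1 without untreated tumor 2, 2 without NAM-treated tumor 1 and 0 without each of the others were lower. The transcription factor *Foxi1* (chr11:34204341-34208092 on mm10) was at 659, 1210.3 and 828 in untreated tumors and at 2217, 2269 and 2461 in NAM-treated tumors. Every NAM-treated tumor was above every untreated tumor, and the 3 treated tumors were within a narrow range. The log2 fold change was 1.41 ± 0.26 (SE; limma adjusted p = 0.166), and 1.53 length-adjusted. Its relative *Foxi3* went from 11.6, 12.2 and 3.26 to 55.9, 34.8 and 45.4, a log2 fold change of 2.35 ± 0.60 at few reads.

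*Atp6v1b1* (chr6:83742988-83758833), the B1 subunit that the proton pump uses in these cells, was at 58.0, 293 and 52.9 in untreated and at 532, 804 and 1243 with NAM. Its log2 fold change of 3.05 ± 0.62 (SE; limma adjusted p = 0.166) was 1 of the 10 highest among genes with a mean of at least 100 in a group. The lowest treated tumor was still above untreated tumor 2, the highest of its group. *Atp6v0a4*, the a4 subunit of the same pump, was at 21.7, 31.5 and 11.4 and at 43.7, 99.7 and 151 (log2 fold change 2.08 ± 0.57). *Car12*, a carbonic anhydrase of the cell surface, was at 132, 283 and 186 and at 459, 992 and 1552 (log2 fold change 2.22 ± 0.46). All treated tumors were again above all untreated tumors for both genes. *Slc26a4*, which encodes pendrin, an exchanger of chloride against bicarbonate, was at 0, 4.06 and 0 and at 12.2, 26.3 and 33.0, and thus at or near 0 in the untreated group. *Hepacam2*, an adhesion protein, was at 26.1, 43.7 and 30.1 and at 112, 96.9 and 102 (log2 fold change 1.64 ± 0.36). For these 7 genes the groups did not overlap, and the calls held when any single tumor was left out. Within the groups, untreated tumor 2 had the highest value of the untreated tumors for all 7.

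Not every gene of the program passed the thresholds. *Kit*, a receptor tyrosine kinase found on mast cells, luminal progenitors and intercalated cells, rose from 5946, 7895 and 4846 to 7679, 18580.0 and 14571 (log2 fold change 1.06 ± 0.34), but its groups overlapped and its length-adjusted value of 0.53 did not pass. *Cftr*, the chloride channel of airway ionocytes, was at 63.8, 42.6 and 86.3 and at 34.0, 62.1 and 46.3, and *Atp6v0d2*, a further pump subunit, at 31.9, 22.3 and 44.8 and at 48.6, 1.88 and 28.1. *Car2*, a cytosolic carbonic anhydrase, was at 745, 517 and 917 and at 575, 390.4 and 491. Each of these 3 genes had overlapping groups and was not past the thresholds. In the M/D model, NAM went with a log2 fold change of 1.87 for *Foxi1*, −0.25 for *Atp6v1b1* and −2.06 for *Car12*. In a fit over all 14 tumors, 0 of 18271 genes differed in the effect of NAM between the models at an adjusted p of 0.05 (limma interaction term), and 3046 genes (16.7%) did at an unadjusted p of 0.05, *Car12* (difference in log2 fold change 4.27) being 1 of the latter.

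**Figure D3:**
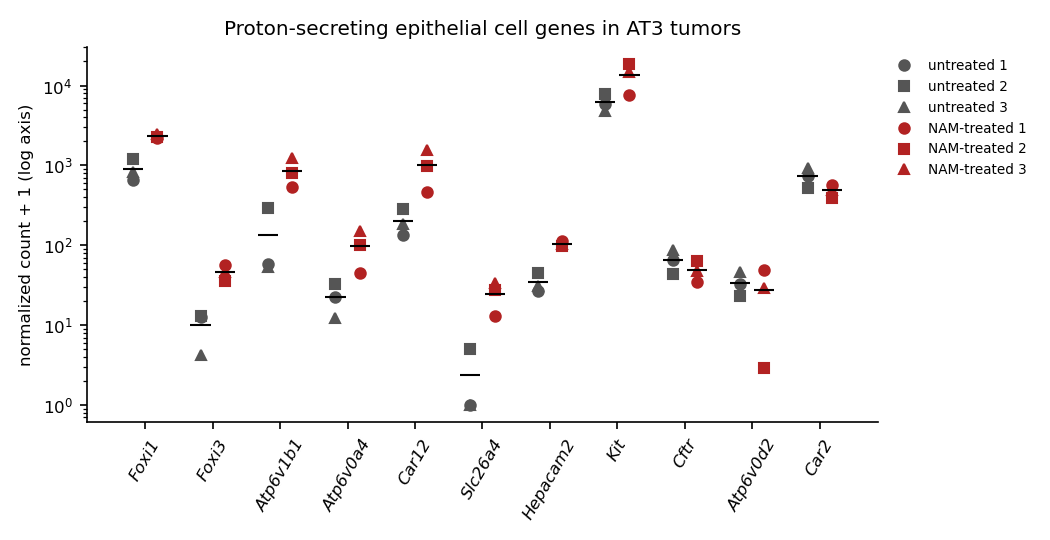
Normalized count + 1 (log axis) of 11 genes of proton-secreting epithelial cells in the 3 untreated (grey) and 3 NAM-treated (red) AT3 tumors, 1 symbol shape per replicate number, with bars at the group means. The groups do not overlap for the 7 genes on the left, *Foxi1* to *Hepacam2*, and overlap for the 4 on the right.

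The promoters of these genes were read to see whether letters that forkhead proteins such as FOXI1 are known to bind were present. The windows are those of RefSeq on GRCm38.p6, 250 bases before and 50 after the start, and the letters searched were TAAACA (on the other strand, TGTTTA). Of 13 genes of the group with a window, 2 held them (15.4%), against 15.1% of all 27025 genes of the table and 10.6% of the genes tested. They are *Atp6v1b1* (chr6:83742767-83743066, plus strand), where the letters were 98 to 93 bases before the start, and *Car12* (chr9:66713436-66713735, plus strand), where they were 11 to 6 bases before it. The windows of *Foxi1*, *Foxi3*, *Slc26a4*, *Atp6v0a4* and *Hepacam2* did not hold them. Both windows are shown as those of the group that hold the letters, which are in capitals.
Atp6v1b1: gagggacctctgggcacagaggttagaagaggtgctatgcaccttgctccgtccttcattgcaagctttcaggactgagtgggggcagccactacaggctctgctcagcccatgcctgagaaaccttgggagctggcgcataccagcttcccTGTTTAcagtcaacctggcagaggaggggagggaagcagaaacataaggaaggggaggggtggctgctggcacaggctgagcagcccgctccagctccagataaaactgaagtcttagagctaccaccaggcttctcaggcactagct
Car12: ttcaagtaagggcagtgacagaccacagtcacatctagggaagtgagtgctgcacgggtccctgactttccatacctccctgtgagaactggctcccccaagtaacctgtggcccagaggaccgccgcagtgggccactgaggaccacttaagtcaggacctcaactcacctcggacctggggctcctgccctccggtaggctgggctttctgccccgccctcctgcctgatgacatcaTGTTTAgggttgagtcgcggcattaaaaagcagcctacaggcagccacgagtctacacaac

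Stromal gene groups had medians above 0 as measured, and those of collagens and matrix glycoproteins were near 0 once length was taken into account. Of 37 collagen genes tested, 4 were higher and 0 lower with a median log2 fold change of 0.65, but length-adjusted the median was −0.03 and 0 were higher, 7 lower. *Col1a1*, the main chain of fibrillar collagen, was at 26656, 113730.0 and 32713 in untreated and at 44176, 85443 and 135060.0 in NAM-treated tumors. Untreated tumor 2 was above NAM-treated tumors 1 and 2, and the log2 fold change of 0.79 ± 0.57 did not pass. *Col3a1*, a further fibrillar chain, was at 21454, 45927 and 26859 and at 31957, 42389.6 and 78343, and fibronectin *Fn1* was at 15699, 39694 and 12646 and at 13320.1, 45105 and 45488. In both genes untreated tumor 2 was above at least 1 treated tumor, and the thresholds were not passed. Without untreated tumor 2, 23 collagens were higher, and without NAM-treated tumor 1, 15 were, against 18.2% and 17.9% of all genes tested in these fits, whereas without the others 1 to 2 were. Lower collagens numbered 3 without untreated tumor 3, 2 without NAM-treated tumor 2 and 0 without each of the others. All 17 fibroblast markers were tested and 3 were higher, with a median of 0.22 (left-out 0 to 4; length-adjusted 2, median 0.41). Of these genes, 0 were higher on both scales. The 3 higher as measured included *Pdgfra*, the receptor that defines these cells, at 165, 184 and 145 and 187, 465 and 544 (log2 fold change 1.14, 0.44 length-adjusted, which did not pass).

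Matrix genes other than collagens moved in both directions. Of 52 glycoproteins and proteoglycans, 7 were higher and 2 lower (median 0.57), and 10 were higher and 6 lower length-adjusted (median 0.02). Of these genes, 26 without untreated tumor 2, 24 without NAM-treated tumor 1 and 3 to 5 without the others were higher as measured. *Fmod*, which encodes fibromodulin, a proteoglycan that binds collagen fibrils, was at 92.7, 287 and 159.5 and at 289, 582 and 1064 (log2 fold change 1.79 ± 0.53, 1.67 length-adjusted). The groups did not overlap, although NAM-treated tumor 1 was barely above untreated tumor 2. *Tgfbi*, an adhesion protein induced by TGF-beta, was at 2974, 3509 and 4675 and at 5952, 7053 and 6688 (log2 fold change 0.84 ± 0.23, 0.76 length-adjusted) without overlap. *Nid1*, which links laminin and collagen in basement membranes, and *Bgn*, the proteoglycan biglycan, rose by 1.91 and 1.17 on the log2 scale and stayed past the thresholds length-adjusted (1.22 and 1.21), with overlap. *Spp1*, which encodes osteopontin, went from 83985, 51074 and 57017 to 16477, 34120.4 and 29612 and *Mgp*, an inhibitor of calcification, from 148015, 88204 and 145363 to 56551, 62781 and 52180.5. Both fell as measured (−1.29 and −1.12) without overlap between the groups, and both missed the thresholds length-adjusted (−0.66 and −0.35).

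Matrix proteases and their inhibitors were higher in 8 of 35 genes tested and lower in 0 (median 0.55; length-adjusted 5 higher, 1 lower, median 0.20). The number of higher members was 15 without untreated tumor 2, 11 without NAM-treated tumor 1 and 2 to 7 without the others. *Adamts12*, a metalloprotease of the ADAMTS family, was at 2.90, 3.05 and 11.4 in untreated and at 36.5, 62.1 and 118 in NAM-treated tumors (log2 fold change 3.50 ± 0.68, limma adjusted p = 0.166, 2.74 length-adjusted). All 3 treated tumors were above all untreated tumors, in which the gene was close to the level of a few reads. *Mmp9*, a gelatinase of leukocytes and tumor cells, was at 243, 414 and 269 and at 618, 473 and 920.3 (log2 fold change 1.10 ± 0.32, 0.94 length-adjusted). *Mmp15*, a membrane-bound metalloprotease, rose with overlap, from 643, 1109 and 518 to 919.8, 2377 and 2593 (1.31, 0.64 length-adjusted).

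Of 19 endothelial markers tested, 7 were higher and 2 lower (median 0.56), and 5 were higher and 0 lower length-adjusted (median 0.25). As measured, 10 without untreated tumor 2, 10 without NAM-treated tumor 1 and 3 to 4 without the others were higher. *Pecam1*, the adhesion molecule CD31, was at 1559, 1834 and 1598 and at 2292, 2969 and 2939 without overlap (log2 fold change 0.71 ± 0.21), a change that was 0.53 length-adjusted and then under the fold threshold. *Tek*, the angiopoietin receptor, was at 132, 169 and 112 and at 229.6, 266 and 368 (log2 fold change 1.05, 0.66 length-adjusted, both past the thresholds). *Cdh5*, which encodes VE-cadherin, and *Kdr*, a VEGF receptor, rose by 1.39 and 1.54, and by 1.03 and 0.89 length-adjusted, with overlap in both. The short endothelial genes *Cldn5* and *Egfl7* fell by 0.72 and 0.67 as measured and did not pass length-adjusted. Of 14 pericyte and smooth muscle markers, 6 were higher and 1 lower (left-out 2 to 7 and 1 to 3; length-adjusted 2 and 0), the former including the receptor *Pdgfrb*, at 262, 698 and 332 and 634, 1082 and 1781 (1.44, 0.78 length-adjusted), whereas *Acta2*, smooth muscle actin, was at 3048, 4429.9 and 3371 and 3346, 4238 and 3584.

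Genes of tissues that surround a tumor under the skin were at unequal levels in the 6 tumors. The mean log2 level of 15 skeletal muscle markers was 8.70, 2.71 and 9.50 in untreated and 10.16, 3.52 and 6.69 in NAM-treated tumors, and *Acta1*, skeletal muscle actin, was at 3304, 0 and 4286 and at 8411, 37.6 and 705. Muscle genes were thus lowest in the second tumor of each group and varied more within than between the groups, with 0 of 15 markers past the thresholds, as measured (median −0.29) and length-adjusted (−0.30). Of 14 adipocyte markers, 0 were higher and 1 lower (left-out 0 to 3 and 0 to 2; length-adjusted also 0 and 1), the latter as measured being *Fabp4*, a fatty acid carrier, at 8882, 5354 and 7937 and 5952, 2538 and 3024. Keratinocyte and hair follicle markers, 10 of 14 tested, were lower in 3 cases and higher in 0 (left-out 2 to 5 and 0 to 1; length-adjusted 1 and 0). Of 6 Schwann cell markers 1 was higher on both scales, and of 5 red blood cell genes tested 0 changed on either, although 3 of these were lower without untreated tumor 1.

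Genes shared by all leukocytes changed in 1 direction. Of 18 pan-leukocyte genes, all tested, 8 were higher and 0 lower with a median log2 fold change of 0.60, and after length adjustment 8 were again higher and 0 lower (median 0.44), 6 of them in both. The left-out range was 6 to 11 higher and 0 to 1 lower. Their mean log2 level was 8.93, 8.79 and 9.38 in untreated and 9.64, 9.62 and 9.54 in NAM-treated tumors, so that all treated tumors were above all untreated ones, untreated tumor 3 by the smallest margin. For 10 of the 18 genes the groups did not overlap, all higher with NAM, against 11.7% of all genes tested. *Laptm5*, a lysosomal membrane protein of blood cells, was at 1285, 1790.0 and 2063 and at 2977, 3481 and 3822 (log2 fold change 1.02 ± 0.24, limma adjusted p = 0.166, 1.03 length-adjusted). *Lcp1*, the actin-bundling protein L-plastin, was at 1297, 1447 and 1967 and at 2692, 3332 and 3313 (1.00, 0.78 length-adjusted). *Plek*, which encodes pleckstrin, and *Dock2*, an exchange factor for RAC, rose by 0.95 and 1.56 and stayed past the thresholds length-adjusted. *Ptprc*, which encodes CD45, was at 697, 859 and 1186 and at 1476, 1525 and 1385, with a log2 fold change of 0.71 ± 0.24 that missed the threshold at 0.38 length-adjusted.

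The promoters of pan-leukocyte genes were searched for GGAAGT (on the other strand, ACTTCC), letters bound by the ETS family, to which the leukocyte factor PU.1 belongs. They were found in 10 of 15 genes with a window (66.7%), against 26.5% of all genes of the table, 29.3% of the genes higher and 35.7% of those lower with NAM. Chemokine genes (56%) and ribosomal protein genes (50%) held them as well. The window of *Laptm5* (chr4:130913066-130913365, plus strand), a member past the thresholds on both scales, is shown with the letters in capitals, 63 to 58 bases before the start.
Laptm5: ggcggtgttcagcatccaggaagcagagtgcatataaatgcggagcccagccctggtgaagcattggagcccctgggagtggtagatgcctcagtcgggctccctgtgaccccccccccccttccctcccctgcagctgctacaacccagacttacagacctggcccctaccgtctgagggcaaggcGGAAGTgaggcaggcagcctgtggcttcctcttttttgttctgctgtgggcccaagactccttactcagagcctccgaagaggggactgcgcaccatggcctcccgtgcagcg

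Macrophage genes were higher in 7 and lower in 1 of 24 cases (left-out 4 to 7 and 0 to 5, with 5 lower without untreated tumor 2; length-adjusted 4 and 1), around a median of −0.05 (0.26 length-adjusted). The log2 fold change was above 0 for 11 of the 24 as measured and for 18 length-adjusted. *Adgre1*, which encodes F4/80, was at 341, 288 and 392 and at 496, 797 and 865 (log2 fold change 1.05 ± 0.28, 1.01 length-adjusted), without overlap. *Csf1r*, the receptor for macrophage colony-stimulating factor, was at 1188, 2077 and 1929 and at 2864, 3444 and 4183 (1.04), also without overlap, though its length-adjusted value of 0.50 was under the fold threshold. *Itgam* (CD11b) and the scavenger receptor *Cd163* rose by 1.18 and 1.06, and by 0.72 and 0.68 length-adjusted. *Arg1*, the arginase of suppressive macrophages, fell from 2330.3, 941 and 2796 to 1309.8, 919 and 377 as measured (−1.25) and missed the thresholds length-adjusted (−0.74). Among 7 genes of the phagocyte NADPH oxidase, a group chosen after its values were seen, 2 were higher and 0 lower (length-adjusted 2 and 1), in that the catalytic subunit *Cybb* went from 161, 191 and 348 to 509, 825 and 667 (1.57, 1.30 length-adjusted) and the organizer *Ncf1* from 138, 149 and 225 to 299, 382 and 395 (1.09, 1.04), both without overlap, whereas *Ncf4* and *Cyba* were not past the thresholds.

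Of 30 T cell genes, 27 were tested and 2 were higher and 0 lower, with a median of 0.37 (length-adjusted 1 and 0, median 0.49). The number of higher T cell genes was 0 without untreated tumor 1 and 5 without untreated tumor 3. The CD8 chain *Cd8a* was at 133, 39.6 and 599 in untreated and at 406, 232 and 71.0 in NAM-treated tumors, a range over which untreated tumor 3 was the highest of all and untreated tumor 2 the lowest. *Cd3e*, a chain of the T cell receptor complex, was at 30.4, 22.3 and 92.0 and at 101, 46.1 and 30.6, and *Cd4* at 23.2, 74.1 and 48.0 and at 109, 58.3 and 90.9. *Foxp3*, the factor of regulatory T cells, was at 0, 10.2 and 23.6 and at 41.3, 28.2 and 57.0 (log2 fold change 2.68 ± 1.07), higher without overlap at few reads, and not past the thresholds length-adjusted (2.33). Cytotoxic and NK genes were lower in 1 of 22 cases and higher in 0 (median −0.45), and length-adjusted 0 changed (median 0.08). As measured, 8 without untreated tumor 2, 5 without NAM-treated tumor 1 and 0 to 2 without the others were lower, against 17.5% and 15.3% of all genes tested without the first and the second of these tumors. Granzyme *Gzmb* was at 185, 47.7 and 179 and at 134, 87.5 and 47.9, perforin *Prf1* at 44.9, 25.4 and 126 and at 91.1, 96.0 and 50.4, and interferon gamma *Ifng* at 18.8, 8.12 and 79.8 and at 70.5, 30.1 and 4.96. Across these 3 genes the groups overlapped, untreated tumor 2 being the lowest of its group in each.

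Of 13 B cell genes tested, 2 were higher and 2 lower, with a median of −0.40 (left-out 0 to 2 lower; length-adjusted 2 and 1, median −0.38). As measured, 5 of the 13 had a log2 fold change above 0. The 2 higher genes were *Pou2af1* and *Ebf1*. *Pou2af1*, a transcriptional coactivator, was at 1206, 1076 and 806 and at 1733, 3116 and 2135 (log2 fold change 1.15 ± 0.28, 1.28 length-adjusted). *Ebf1*, known also as a factor of fat and stromal cells, rose by 1.38. Dendritic cell genes were higher in 2 of 15 cases and lower in 0 (left-out 0 to 2 and 0 to 1; median 0.44), and length-adjusted in 3 and 0 (median 0.37). MHC class II genes were higher in 1 of 11 cases (left-out 1 to 2; median 0.33) and length-adjusted in 2 (median 0.68), with all 11 length-adjusted values above 0. Their mean log2 level was 8.58, 7.87 and 9.50 in untreated and 9.69, 8.96 and 8.68 in NAM-treated tumors, with overlap. The 1 higher as measured was *Ciita*, their transactivator, at 60.9, 43.7 and 116 and at 198, 234 and 248 (1.73), which did not pass length-adjusted (0.99). *Cd74*, the invariant chain, was at 8630.0, 6281 and 18508 and at 25903, 14382 and 12274, with overlap. Its change of 0.73 passed only length-adjusted (1.13). Of 18 MHC class I presentation genes 1 was higher (left-out 1 to 3; length-adjusted 0), of 12 neutrophil genes tested 1, *Mmp9* (left-out up to 2 lower; length-adjusted also 1 higher), and of 10 mast cell and basophil genes 2 were higher and 1 lower (left-out 0 to 2 and 0 to 1; length-adjusted 0 and 1).

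**Figure D4:**
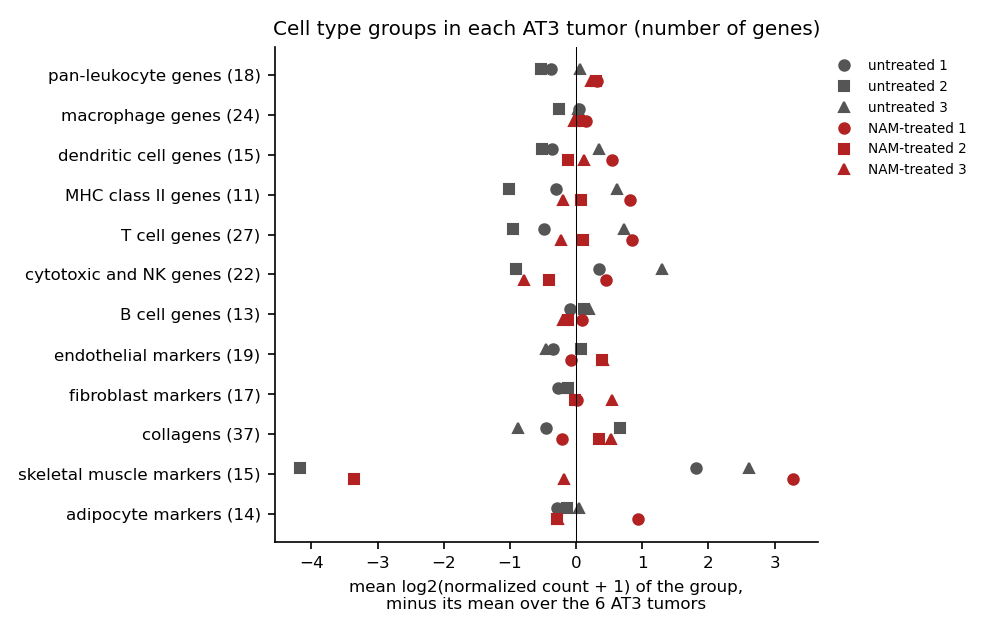
Mean log2(normalized count + 1) of 12 cell type groups in each of the 6 AT3 tumors, minus the mean of the group over the 6 tumors (horizontal axis), grey for untreated and red for NAM-treated tumors, with 1 symbol shape per replicate number and the number of genes in parentheses. The 3 treated tumors are above the 3 untreated tumors for pan-leukocyte genes, whereas T cell, cytotoxic and skeletal muscle groups spread within both groups.

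Genes of secreted proteins changed in both directions. Of 73 growth factor genes tested of 78, 8 were higher and 7 lower (median 0.07), close to the 12.2% and 10.9% of all genes tested. Length-adjusted, 7 were higher and 5 lower (median 0.13), against 7.9% and 7.88% of all genes, with 5 in each direction on both scales. As measured, 10 without untreated tumor 2, 14 without NAM-treated tumor 1 and 2 to 5 without the others were higher, and the left-out range of lower genes was 4 to 8. *Ptn*, which encodes pleiotrophin, a heparin-binding growth factor, was at 13221, 9925 and 14653 in untreated and at 4707, 4488 and 4895 in NAM-treated tumors (log2 fold change −1.41 ± 0.21, limma adjusted p = 0.166, −1.15 length-adjusted). The treated tumors had an SD of 204 counts, and all were below the untreated tumors. *Pgf*, the placental growth factor that binds a VEGF receptor, was at 5775, 3113 and 4872 and at 2296, 2252 and 1158 (−1.29, −1.12 length-adjusted), and *Fgf1*, acidic fibroblast growth factor, at 2353, 2033 and 2063 and at 1429, 1205 and 1017 (−0.83, −1.08 length-adjusted). Both fell without overlap. In the other direction, *Hgf*, the ligand of MET, was at 43.5, 40.6 and 81.4 and at 77.8, 135 and 183 (1.23, 1.34 length-adjusted) with overlap, *Angpt2*, an antagonist ligand of the angiopoietin receptor, at 439, 276 and 399 and at 515, 904 and 635 (0.87), and *Dkk3*, a dickkopf family protein, at 40.6, 102 and 45.6 and at 104, 169 and 173 (1.32).

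Antiproteases were lower in 7 and higher in 2 of 28 genes tested of 35 (median −0.37), and lower in 5 and higher in 2 length-adjusted (median −0.10). The number of lower antiproteases was 12 without untreated tumor 2, 11 without NAM-treated tumor 1 and 5 to 7 without the others. *Slpi*, an inhibitor of neutrophil elastase, was at 10685, 8623 and 8105 and at 2742, 3891 and 2895 (log2 fold change −1.53 ± 0.22, limma adjusted p = 0.166, −0.90 length-adjusted). *Wfdc2*, a whey acidic protein family member also known as HE4, was at 128625, 58180.0 and 95228 and at 43948, 42886 and 20728 (−1.40, −0.79 length-adjusted). *Cst6*, a cystatin that inhibits cysteine proteases, was at 1001, 259 and 582 and at 153, 218 and 119 (−1.74, −2.08 length-adjusted). For these 3 genes every treated tumor was below every untreated tumor. *Prtn3*, a neutrophil serine protease rather than an inhibitor, also fell without overlap, from 1551, 1079 and 1174 to 318, 445 and 397 (log2 fold change −1.71 ± 0.25, limma adjusted p = 0.166). The 2 higher members were *Serping1*, the C1 inhibitor, at 2117, 2477 and 2572 and 3714, 3391 and 4302 (0.67, 0.98 length-adjusted), and *Serpina3n*, at 500.0, 551 and 618 and 793, 852 and 1269 (0.78, 1.00), the latter 1 of a family of similar genes.

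Complement genes, many of them made by fibroblasts and macrophages, were higher in 4 and lower in 1 of 23 cases (left-out 2 to 4 and 0 to 2; length-adjusted 4 and 0). *C1s1*, a protease of the C1 complex, was at 468, 715 and 567 and at 961, 1016 and 1299 (log2 fold change 0.91, 0.96 length-adjusted). *C3*, the central component, was at 313, 454 and 376 and at 559, 677 and 894 (0.89, 0.29 length-adjusted, not past the thresholds). *C6*, a part of the membrane attack complex, rose by 0.91 (0.99 length-adjusted).

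Chemokine genes were lower in 6 and higher in 0 of 35 cases (median −0.62), and after length adjustment 3 were higher and 3 lower (median −0.08). The number of lower chemokines as measured was 17 without untreated tumor 2, 13 without NAM-treated tumor 1 and 3 without each of the others, against 17.5% and 15.3% of all genes tested without the first and the second of these tumors. Higher chemokines numbered 3 without NAM-treated tumor 2 and 0 to 1 without the others. Their median transcript had 1417 bases. The 3 lower in both were *Ccl27a*, at 1261, 725 and 1236 and 501, 445 and 330.4 (−1.31, −0.77 length-adjusted), *Cxcl15*, at 89.9, 42.6 and 107 and 26.7, 23.5 and 26.4 (−1.51, −1.03), and *Cxcl17*, at 75.4, 53.8 and 52.9 and 34.0, 15.1 and 6.61 (−1.91, −1.19). All 3 are chemokines of epithelia, and none of them had overlapping groups, although *Ccl27a* has near-identical copies whose reads may have been split. *Cxcl9*, an interferon-induced chemokine that attracts T cells, was at 7475, 2403 and 26908 and at 20123, 6729 and 1294, and its relative *Cxcl10* at 5932, 2678 and 12092 and at 11262, 4803 and 2262. Their groups overlapped widely, untreated tumor 3 being the highest and NAM-treated tumor 3 the lowest of all 6 for both. *Ccl2* and *Ccl5* were not past the thresholds (−0.62 and −0.84, length-adjusted 0.14 and −0.10).

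Among 39 interleukin and cytokine genes tested of 55, 1 was higher and 5 were lower (left-out 0 to 1 and 2 to 7; length-adjusted 4 and 1). The 1 that fell in both was *Ifnb1*, which encodes interferon beta. It was at 397, 98.5 and 282 in untreated and at 65.6, 37.6 and 24.0 in NAM-treated tumors, the lowest untreated tumor being above the highest treated one. Its log2 fold change of −2.48 ± 0.56 (SE; limma adjusted p = 0.166, −1.56 length-adjusted) was the lowest among genes with a symbol, other than predicted genes, pseudogenes and small RNAs, with a mean of at least 100 in a group and without overlap. Of 29 type I interferon response genes tested, 2 were higher and 3 lower, with a median of −0.19 (−0.05 length-adjusted, with 0 higher and 2 lower). Of these interferon response genes, 9 without untreated tumor 2, 6 without NAM-treated tumor 1 and 1 without each of the others were lower as measured. *Isg15*, a ubiquitin-like modifier, fell from 63447, 26255 and 72707 to 35082, 26701 and 18587 with overlap (−0.93) and did not pass length-adjusted (−0.23). *Mx2*, an antiviral GTPase, went from 3262, 2383 and 3255 to 1853, 1540.0 and 1220.2 without overlap (−0.95, −0.85 length-adjusted), whereas *Oas3*, a synthetase of oligoadenylate, rose from 1849, 2581 and 2382 to 3638, 6498 and 4311 (1.05, 0.51 length-adjusted, under the fold threshold). Of 7 Schlafen genes, an interferon-inducible family with similar sequences that was chosen after its values were seen, 3 were higher and 2 lower (length-adjusted 4 and 1). Of these, *Slfn5* was at 120.3, 152 and 129 and 259, 596 and 666 and *Slfn9* at 513, 820.4 and 777 and 1312, 2983 and 3529.9, both higher without overlap (1.80 and 1.80, length-adjusted 1.30 and 1.35), while *Slfn4* fell by 0.79 with overlap.

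The promoter of *Ifnb1* (chr4:88522745-88523044, minus strand) is shown, as its interferon enhancer is a textbook site of NF-kappa-B. Searched on both strands, the letters GGAAATTCC were found in 0.381% of the genes of the table and, in *Ifnb1*, 115 to 107 bases before the start (in capitals).
Ifnb1: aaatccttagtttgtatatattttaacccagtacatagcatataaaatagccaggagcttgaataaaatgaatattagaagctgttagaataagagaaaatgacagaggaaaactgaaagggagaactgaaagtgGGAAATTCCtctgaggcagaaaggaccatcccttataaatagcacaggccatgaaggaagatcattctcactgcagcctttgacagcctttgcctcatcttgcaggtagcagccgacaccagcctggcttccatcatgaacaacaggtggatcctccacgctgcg

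**Figure D5:**
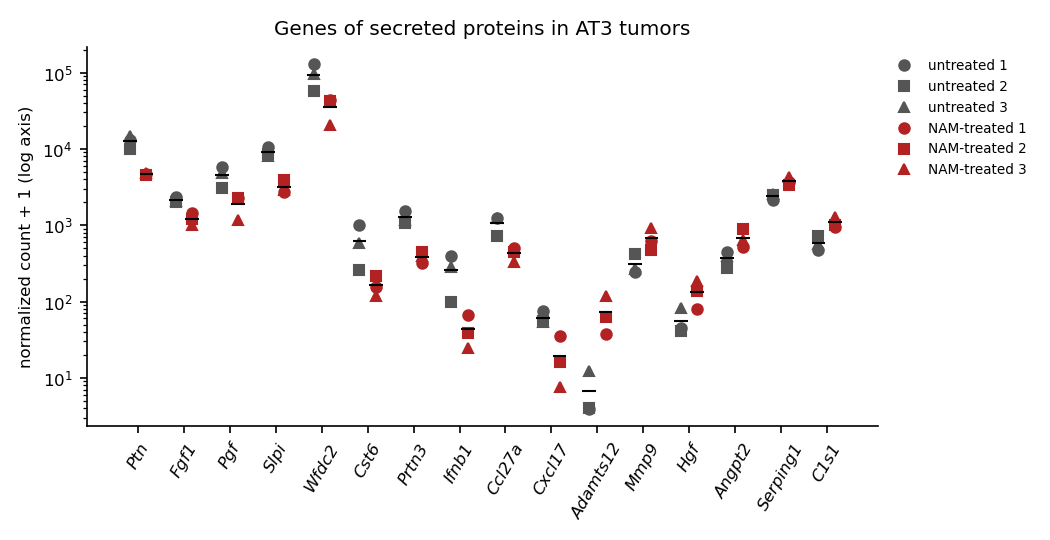
Normalized count + 1 (log axis) of 16 genes of secreted proteins in the 3 untreated (grey) and 3 NAM-treated (red) AT3 tumors, 1 symbol shape per replicate number, with bars at the group means. The 10 genes on the left, *Ptn* to *Cxcl17*, are lower in all treated tumors than in all untreated ones, and the 6 on the right, *Adamts12* to *C1s1*, have higher means with NAM, with overlap for *Hgf*.

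Of the genes of lipid synthesis, a part stayed higher after length adjustment. Of 25 cholesterol synthesis genes, all tested, 9 were higher and 0 lower (median 0.14), and length-adjusted 4 were higher and 1 lower (median 0.09). The left-out range was 3 to 10 higher and 0 to 4 lower. The 4 higher on both scales included *Dhcr7* and *Hmgcs1*. *Dhcr7*, the last enzyme of a branch of the pathway, was at 2179.6, 2283 and 2322 in untreated and at 3103, 3996 and 3779 in NAM-treated tumors (0.67 ± 0.20, 0.65 length-adjusted). Its groups did not overlap. *Srebf2*, the transcription factor of the pathway, was at 946, 1223 and 943 and at 1525, 2927 and 2846 (1.18), and at 0.54 length-adjusted it was just under the fold threshold. In M/D-driven tumors the median of these genes with NAM was −0.99. The difference in effect between the models was 1.88 for *Dhcr7* and 1.65 for *Srebf2* on the log2 scale, with adjusted p = 0.142 and 0.142 (limma interaction term), and thus not past an adjusted p of 0.05.

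The letters CCAAT (on the other strand, ATTGG), bound by NF-Y, a partner of SREBP factors, were found in 16 of 17 cholesterol synthesis genes with a window (94.1%), against 41.1% of all genes of the table and 43.1% of the genes higher with NAM. A form of the SREBP site itself, TCACNCCAC (N for any base), was found in 1 of these 17 genes (5.88%), against 1.44% of all genes of the table. The window of *Dhcr7* that holds CCAAT (chr7:143829964-143830263, plus strand, 1 of 3 windows of the gene) is shown as an example, with these letters in capitals 85 to 81 bases before the start and, on the other strand, 49 to 45 bases before it.
Dhcr7: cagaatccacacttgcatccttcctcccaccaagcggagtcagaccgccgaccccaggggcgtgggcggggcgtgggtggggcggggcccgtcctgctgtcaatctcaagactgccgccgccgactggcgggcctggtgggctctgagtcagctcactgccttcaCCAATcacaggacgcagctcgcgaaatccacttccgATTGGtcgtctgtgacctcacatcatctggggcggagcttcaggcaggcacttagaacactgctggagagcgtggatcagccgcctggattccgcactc

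Of 34 genes of fatty acid and triglyceride metabolism tested of 35, 9 were higher and 2 lower (median 0.22), and 7 and 2 length-adjusted (median 0.27), 6 and 2 of them in both (left-out 6 to 13 and 1 to 3). *Scd2*, a desaturase, was at 1554, 2296 and 1541 and at 2855, 6739 and 6861 (log2 fold change 1.53 ± 0.36, 0.94 length-adjusted). *Elovl5*, an elongase of polyunsaturated fatty acids, was at 851, 871 and 1011 and at 1390.0, 1789 and 1787 (0.86, 1.03 length-adjusted), and *Fads2*, the desaturase that acts with it, at 2384, 3572 and 2678 and at 4375, 5447 and 5843 (0.87, 0.73 length-adjusted). All 3 rose without overlap. The carrier *Fabp5* fell from 74136, 56699.7 and 74948 to 33736, 28313 and 34384 (log2 fold change −1.09 ± 0.22, limma adjusted p = 0.166, −1.18 length-adjusted), also without overlap. *Fasn*, fatty acid synthase, was at 1327, 3687 and 1473 and at 2009.6, 3779 and 3243, with overlap.

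Genes that make or use NAD were the ones closest to the agent given. Of 33 tested of 37, 5 were higher and 2 lower (median 0.09), and 3 in each direction length-adjusted (left-out 2 to 5 and 0 to 2). *Nampt*, the salvage enzyme that uses nicotinamide, was at 8101, 4766 and 10666 and at 8301, 7059 and 6055 (log2 fold change −0.07 ± 0.30), and *Nnmt*, which methylates nicotinamide for clearance, at 323, 213 and 343 and at 304, 165 and 169 (−0.49 ± 0.34). Neither passed the thresholds, and both had overlapping groups. *Sirt1*, a deacetylase that consumes NAD, was at 287, 382 and 323 and at 493, 639.7 and 791 without overlap (0.94 ± 0.26, 0.68 length-adjusted). *Tnks*, the polymerase tankyrase, was at 139, 319.8 and 162 and at 344, 1430.0 and 1667 (2.27, 1.49 length-adjusted), with a transcript of 9163 bases. *Parp1* rose by 0.73 with overlap and did not pass length-adjusted (0.40). *Aox1*, which oxidizes methylated nicotinamide, and *Nmnat1*, a nuclear NAD synthase, fell by 0.70 and 0.69, and by 1.30 and 0.61 length-adjusted.

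Genes of glycolysis and the TCA cycle are read against 12.2% higher and 10.9% lower among all genes tested. Of 25 glycolysis genes, 4 were higher and 1 lower as measured and 0 and 1 length-adjusted, and of 25 TCA cycle genes 0 changed as measured and 1 was higher length-adjusted. Without untreated tumor 2, 3 TCA cycle genes were higher and 6 lower, and without NAM-treated tumor 1, 5 and 3, whereas glycolysis genes had a left-out range of 0 to 6 higher and 0 to 2 lower. *Ldha*, lactate dehydrogenase, was at 195747, 156015 and 177110.0 and at 157971, 154909 and 143438 (−0.21 ± 0.23). *Hk2*, a hexokinase, rose with overlap from 499, 1414 and 594 to 962, 2644 and 2399 (1.29, 0.65 length-adjusted, not past the thresholds). Of 24 hypoxia response genes, 7 were higher and 2 lower, and 4 and 0 length-adjusted (left-out 2 to 8 and 0 to 2). They included *Car12*, described above, the crosslinking enzyme *Lox*, at 481, 771 and 458 and 797, 1706 and 2471 (1.43, 1.12 length-adjusted), and *Hif1a*, at 2064, 2706 and 2006 and 2725, 4633 and 5184 (0.85, 0.62), both without overlap. Targets of ATF4 and genes of serine and one-carbon metabolism were higher in 4 and lower in 2 of 35 cases (left-out 2 to 7 and 1 to 5; length-adjusted 3 and 3). *Slc7a1*, a carrier of arginine and lysine, rose from 312, 501 and 391 to 555, 2106 and 2479 (1.86, 1.06 length-adjusted), and *Sesn2*, a stress sensor of amino acid supply, by 1.03 (0.75). Glutathione and NRF2 target genes were higher in 1 and lower in 4 of 32 cases (left-out 0 to 4 and 1 to 8, with 8 lower without untreated tumor 2 or NAM-treated tumor 1; length-adjusted 5 and 2), the higher 1 being *G6pdx*, the entry enzyme of the pentose phosphate pathway, at 1914, 2610.4 and 2012 and 2809, 3783 and 4171 (0.71, 0.74 length-adjusted).

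Genes of the respiratory chain and ATP synthase were lower in 54 of 76 cases and higher in 0, with a median of −0.90. With a median transcript of 1186 bases they are short, and length-adjusted 13 were lower and 0 higher around a median of −0.22. As measured, 65 without untreated tumor 2, 61 without NAM-treated tumor 1 and 15 to 27 without the others were lower. Every treated tumor was below every untreated tumor for 7 of the 76 genes and above for 1, against 11% and 11.7% of all genes tested. *Atp5e*, a subunit of ATP synthase, was at 64854, 24965 and 65762 and at 25853, 15331 and 13077 (−1.45, −1.07 length-adjusted), untreated tumor 2 being just under NAM-treated tumor 1. *Ndufab1*, the acyl carrier protein of complex I, was at 9569, 4888 and 8134 and at 4697, 3239 and 2950.0 (−1.03, −1.08 length-adjusted). *Cox7c*, of complex IV, fell by 1.36 as measured but had a length-adjusted value of −0.26, which did not pass.

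Cytosolic ribosomal protein genes were lower in 75 of 79 cases and higher in 0 (median −1.06). Their median transcript had 1059 bases, and length-adjusted 27 were lower and 0 higher, with a median of −0.53. As measured, 78 without untreated tumor 2, 72 without NAM-treated tumor 1 and 39 to 51 without the others were lower. For 36 of the 79 genes every treated tumor was below every untreated tumor, against 11% of all genes tested. *Rpl38* was at 6289.5, 3107 and 5577 in untreated and at 2579, 1733 and 1464 in NAM-treated tumors (log2 fold change −1.35 ± 0.32, −0.59 length-adjusted), and *Rpl37* at 10944, 7066 and 13980.0 and at 5511, 3851 and 2842 (−1.39, −0.77 length-adjusted). *Fau*, which encodes a ubiquitin-like protein fused to ribosomal protein S30, was at 21512, 10834 and 18145 and at 8637, 7274 and 5974 (−1.16, −0.54 length-adjusted, just under the fold threshold). In the 3 genes the groups did not overlap, and untreated tumor 2 was the lowest of its group. Ribosomal protein genes have many processed pseudogenes, and how shared reads were counted is not given in the sources used here.

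Host genes of small nucleolar RNAs, whose spliced RNAs are known to carry the same start signal as ribosomal protein mRNAs, were looked at after these values had been seen. Of 19 tested of 20, 17 were lower and 0 higher (median −1.05), and 8 of 18 with a length were lower length-adjusted (median −0.63), with a left-out range of 16 to 18 as measured. *Gas5* was at 30962, 22226 and 25963 and at 16469, 11629.7 and 11105 (−1.02, −0.71 length-adjusted), *Snhg1* at 14560.1, 9422 and 15538 and at 6913, 3269 and 3541 (−1.58, −1.26) and *Zfas1* at 37739.9, 15374 and 34729 and at 15088, 9509 and 7479 (−1.41, −1.18), all without overlap. In M/D-driven tumors the median of the group was 0.48. The start signal was searched as a C followed by 4 of C or T in a row, these 5 bases lying between 3 bases before and 8 after the start. It was found in 24 of 58 ribosomal protein genes with a window (41.4%) and in 6 of 16 host genes (37.5%), against 13.5% of all genes of the table and 17.6% of the genes lower with NAM. The share was 15.1% of the genes tested and 14.9% of those higher with NAM. Pan-leukocyte genes held the tract as well, in 5 of 15 genes with a window (33.3%). The windows of *Rpl38* (chr11:114668330-114668629, plus strand), with the tract at bases 1 to 8 of the transcript, and of *Fau* (chr19:6057697-6057996, plus strand), with the tract from 3 bases before to 13 after the start, are shown with the tract in capitals.
Rpl38: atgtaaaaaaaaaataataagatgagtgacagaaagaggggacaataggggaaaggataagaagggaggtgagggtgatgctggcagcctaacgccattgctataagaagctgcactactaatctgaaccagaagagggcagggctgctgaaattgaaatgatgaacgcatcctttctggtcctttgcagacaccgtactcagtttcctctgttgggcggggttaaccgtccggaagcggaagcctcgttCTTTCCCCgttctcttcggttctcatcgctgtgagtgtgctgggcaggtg
Fau: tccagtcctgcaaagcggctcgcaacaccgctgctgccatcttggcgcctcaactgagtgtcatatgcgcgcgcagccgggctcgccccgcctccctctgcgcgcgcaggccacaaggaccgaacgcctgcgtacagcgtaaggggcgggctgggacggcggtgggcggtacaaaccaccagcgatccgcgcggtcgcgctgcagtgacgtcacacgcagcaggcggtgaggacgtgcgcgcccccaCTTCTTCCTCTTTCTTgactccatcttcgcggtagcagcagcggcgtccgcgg

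Of 38 cell cycle genes tested of 39, 9 were higher and 1 lower (median 0.36), and length-adjusted 6 and 2 (median 0.25). As measured, 12 without untreated tumor 2, 10 without NAM-treated tumor 1 and 2 to 5 without the others were higher. *Foxm1*, a transcription factor of mitotic genes, was at 239, 593 and 463 and at 764, 1465 and 1591 without overlap (1.58 ± 0.40, 1.06 length-adjusted). *Mcm4*, a subunit of the replicative helicase, rose by 0.75 (0.65 length-adjusted), whereas the proliferation marker *Mki67* was at 2726, 7510.3 and 3818 and at 4493, 5852 and 6519.6, with untreated tumor 2 the highest of all. Heat shock and chaperone genes were lower in 3 of 25 cases and higher in 0 (left-out 1 to 5 and 0 to 1; length-adjusted 4 and 0). *Hspb1*, a small heat shock protein, was at 18302, 11366 and 6439 and at 2259.9, 3382 and 1902 (log2 fold change −2.17 ± 0.38, limma adjusted p = 0.166, −1.65 length-adjusted), every treated tumor being below every untreated one. Of 26 immediate early genes, 1 was higher and 1 lower (left-out 0 to 3 and 0 to 2; length-adjusted 2 and 0).

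Further genes were past the thresholds by the largest folds or at the smallest p. *Abca12*, a lipid transporter of keratinized epithelia, was at 46.4, 34.5 and 29.3 in untreated and at 164, 166 and 169 in NAM-treated tumors (log2 fold change 2.17 ± 0.33, limma adjusted p = 0.166, 1.43 length-adjusted). *Sox13*, a transcription factor, was at 81.2, 126 and 68.4 and at 293, 342 and 293 (1.79, 1.41), and *Cldn2*, a claudin that forms cation pores in tight junctions, at 746, 854 and 785 and at 2018, 1653 and 3404 (1.5005, 1.47). The treated tumors were above the untreated tumors in each. Among genes with very long transcripts, *Htt*, which encodes huntingtin, *Nipbl*, a loader of cohesin, and *Ep300*, an acetyltransferase, rose by 2.64, 2.51 and 2.44, and by 1.71, 1.86 and 1.55 length-adjusted, with NAM-treated tumor 1 the lowest of its group for all 3. *Mfsd4a*, a transporter of the major facilitator family, was at 13.0, 76.1 and 55.4 and at 185, 440.3 and 286 (2.86, 2.71), and *Slc29a3*, a lysosomal nucleoside transporter, at 43.5, 71.1 and 29.3 and at 134, 405 and 382 (2.59, 2.00). Both had groups that did not overlap. The same held for *Ttc28* (3.24, 2.26), *Zfp568* (2.52, 1.85), *Ncoa2* (2.47, 1.69) and *Arhgap32* (2.43, 1.60). On the lower side, *Fam180a* was at 1110.1, 988 and 912 and at 269, 357 and 154 (log2 fold change −2.02 ± 0.32, limma adjusted p = 0.166, −1.54 length-adjusted). *Cbr2*, a carbonyl reductase, was at 4266, 3639.9 and 3755 and at 1810.4, 1897 and 1615 (−1.13, −0.62), and *Gadd45g*, a stress-induced growth regulator, at 4289.6, 4188 and 4006 and at 1967, 2025 and 1330.0 (−1.25, −0.76). *S100a14*, a calcium-binding protein of epithelia, was at 281, 162 and 161 and at 51.0, 54.6 and 54.5 (−1.85, −1.51). For these 4 genes the groups did not overlap. *Hist1h4c*, a histone gene whose mRNA mostly lacks a poly(A) tail, was at 138, 108 and 78.1 and at 58.3, 16.9 and 7.43 (−2.35, −1.60), and *Hist1h2bb* at 76.8, 143 and 95.2 and at 63.2, 18.8 and 9.09 (−2.13, −1.36). *Snhg9* (−2.19, −1.33), *Mgst2*, a glutathione transferase of membranes (−1.97, −1.85), and *Syt8*, a synaptotagmin (−1.86, −1.51), were lower without overlap. Histone genes have near-identical copies, so that their values are uncertain.

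Leaving out 1 tumor removed some of these calls. Of the 126 genes named above or below that were past the thresholds, 93 stayed past them without each tumor in turn, and 33 did not. Without NAM-treated tumor 3, 27 of them were lost, and without NAM-treated tumor 2 and untreated tumors 1 and 3, 21, 20 and 11. Without untreated tumor 2 and NAM-treated tumor 1, 3 and 4 were lost. All 33 kept their direction. Each of these fits had 5 tumors, and why the losses differed between them was not tested. Among stromal genes they were *Pdgfra*, *Bgn*, *Kdr*, *Cldn5*, *Egfl7* and *Fabp4*, with log2 fold changes of at least 0.84, 0.83 and 1.16 for the first 3. Among epithelial genes they were *Cdh1*, *Esr1*, *Krt7* and *Kit*, and among leukocyte genes *Foxp3*, *Cd163*, *Arg1* and *Ptprc*, the last with 0.53 to 0.92. Among secreted proteins and interferon response genes they were *Angpt2*, *Hgf*, *Mmp15*, *Serping1*, *Serpina3n*, *C6*, *Isg15* and *Slfn4*. Metabolic genes of this kind were *Hk2*, *Dhcr7* (0.60 to 0.78), *Hmgcs1*, *Parp1*, *Nmnat1*, *Aox1*, *G6pdx* and *Hif1a*, and the rest were *Mcm4*, *Ttc28* and the splicing factor gene *Srsf3*.

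The 1 gene at an adjusted p of 0.05 with all tumors, GSMG0043594, has no symbol. It is annotated on chromosome 5 of mm10 at 129622946 to 129623221, over 276 bases, of which 232 overlap the processed pseudogene *Gm6139* (129622990 to 129623871, minus strand). Its normalized count was 251, 134 and 234 in untreated AT3 tumors and 0 in the 3 NAM-treated tumors, a difference of at least 69.1-fold when each treated tumor is set to the value of 3 reads (adjusted p = 0.00555 by limma). In M/D-driven tumors it was between 3.12 and 117. Reads of a processed pseudogene can come from its parent gene, and how shared reads were counted is not given in the sources used here.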

How the data were processed

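Poly(A) RNA of whole tumors was sequenced, 1 library per tumor. The deposited values are a signal, normalized counts that the authors made by mapping reads with STAR 2.4.0 to mm10, counting reads on the constitutive regions of FAST DB genes and dividing by DESeq2 size factors, AT3 and M/D-driven tumors apart. Replicates were not pooled, and the strand setting of the counting is not given in the sources used here. Of 56414 genes listed, 19524 were 0 in all 14 tumors. There were 0 columns without a sample. In each tumor, 100% of values were whole multiples of 1 read within a tolerance of 0.05, which gave back whole reads and the depth.

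Normalized counts were tested on the log2(value + 1) scale with limma 3.58.1 (mean-variance trend, two-sided) in R 4.3.3, over genes with a mean of at least 10 in a group, so that folds of genes with few reads are understated. The p-values measure the spread between tumors, and Benjamini-Hochberg adjustment ran over all genes tested. Genes were called at an unadjusted p up to 0.05 and a fold change from 1.5. Recovered reads were also tested with edgeR 4.0.16 and DESeq2 1.42.0. Genes were matched to GENCODE by symbol and overlapping position, and otherwise by a reciprocal overlap from 0.5 (83.9% of genes tested in all). Length and GC content were those of the longest transcript of the matched gene, not of the regions counted. The trend of every tumor was subtracted by a spline with 4 degrees of freedom. The fits were checked on simulated data in which no tumor stood apart from its group. This check therefore does not cover tumors such as untreated tumor 2 and NAM-treated tumor 1. Promoters came from RefSeq on GRCm38.p6. Tables were made with Python 3.11.15 and pandas 2.3.3, and figures with matplotlib 3.10.9.

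The genes and the 41 gene lists were chosen with earlier results of these data known, and 5 further lists after the values were seen. Of 1193 list entries, 1114 were tested, 63 were below the minimum, 10 are counted together with another gene and 6 were not matched. Some members of the lists are counted but not named here. Named genes are the 10 with the largest change in each direction (groups not overlapping, mean of at least 100, no predicted genes, pseudogenes or small RNAs), up to 4 per list and direction with the smallest p, 8 per direction with the smallest p that passed before and after the adjustment for length, defining members of lists, and genes at an adjusted p of 0.05. Alternatives were other pseudocounts, filters, scalings and tests, the replicate number as a block, and each tumor left out. M/D-driven tumors enter the interaction fit and 1 alternative only.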

Additional observations from a re-analysis of the deposited data

How the results depend on the processing

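With the trend with length and GC content removed, 1278 genes were higher, 1276 lower and 0 at an adjusted p of 0.05 (limma, 3546 at an unadjusted p of 0.05). With each tumor left out in turn, 904 to 3459 genes were higher, 714 to 3310 lower, 0 to 2520 at an adjusted p of 0.05, and 4827 to 11145 genes had groups that did not overlap. Leaving out each tumor after the trend was removed, an alternative added after seeing the data, gave, in the order untreated 1 to 3 and NAM-treated 1 to 3, 995, 1742, 1100, 2035, 638 and 581 higher genes, 767, 1861, 959, 1749, 914 and 751 lower genes, and 0, 899, 0, 1679, 0 and 0 at an adjusted p of 0.05. The largest counts came without untreated tumor 2 or NAM-treated tumor 1, both before and after the trend was removed. At an adjusted p of 0.05, 2047 genes passed with DESeq2, 0 with edgeR (4914 at an unadjusted p of 0.05) and 0 in 1 fit of all 14 tumors (3499). A replicate block in the fit gave 1296 genes at an adjusted p of 0.05, and 663 together with the trend removed, where 1357 were higher and 1346 lower. The deviations of same-numbered tumors correlated by 0.126, 0.256 and −0.16. Untreated tumors 1 and 2 and NAM-treated tumor 2, but not the other 3, correlated best with the tumor of the same number in the other group. With 3 tumors per group, these correlations cannot decide whether same-numbered tumors form pairs. The difference in slope with length was 0.33 to 0.55 under all alternatives that kept the slope and 0.67 as a rank correlation. The genes with a difference between models at an adjusted p of 0.05 were 0 with the trend removed and without the only M/D-driven tumor of another experiment. Over all alternatives, 902 of the medians of gene groups moved by no more than the spread between tumors and 156 by more, most of these with the trend removed. The change of *Mki67*, 0.38 as measured, was −0.62 and past the thresholds with the trend removed and without untreated tumor 1. The cause was not tested in any of these cases. Every AT3 tumor had at least 40936868 reads, and 3 tumors per group limit the precision.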

Other observations

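A group of splicing regulators, genes known to keep introns in a part of their transcripts, was looked at after the values had been seen. Of 30 tested of 31, 10 were lower and 0 higher (median log2 fold change −0.36), and 9 were lower and 0 higher length-adjusted (median −0.48), 8 of them in both. With a single tumor left out, 5 to 11 were lower as measured, and 4 without untreated tumor 2, 1 without NAM-treated tumor 1 and 0 without each of the others were higher. Their median transcript had 4061 bases, above the 3124 bases of all genes tested. *Clk1*, a kinase of splicing factors, was at 6146, 6310.2 and 5429 in untreated and at 4046, 2751 and 2378 in NAM-treated AT3 tumors (−0.997, −1.19 length-adjusted). *Luc7l*, a component of the U1 particle, was at 4027, 3844 and 3724 and at 2593, 1953 and 1869 (−0.87, −1.31), and *Rsrp1*, an arginine- and serine-rich protein, at 5882, 6385 and 5074 and at 3860.1, 3738 and 2973 (−0.72, −0.71). For these 3 genes every treated tumor was below every untreated tumor. *Srsf3* fell with overlap (−0.81, −0.87). In M/D-driven tumors the median of the group with NAM was 0.37.

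By type of gene in GENCODE, protein-coding genes had a median log2 fold change of 0.09 (14270 genes tested), long intergenic RNAs of −0.60 (420) and antisense RNAs of −0.56 (427), which became −0.22 and −0.17 length-adjusted. Of the long intergenic RNAs, 2 were higher and 89 lower, and of the antisense RNAs 3 and 68. Reads of an antisense RNA and of its partner cannot be told apart if the counting did not use strand. The 56 small nucleolar RNAs tested, whose bodies lie in introns of host genes such as *Gas5*, had a median of −1.15, and of −0.09 length-adjusted.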
